A study of Mus musculus with 20 samples.

Results

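Rab GTPases are the largest family of small GTPases that direct membrane traffic, and the striatal arrays measured 58 of their genes among 22180 genes with a symbol of their own. A Rab gene was taken as a transcript cluster (the array's unit for 1 gene) whose annotation gave exactly 1 symbol of the form Rab followed by a number and at most a letter and a further digit, and for the 7 symbols with more than 1 such cluster the cluster with the highest interquartile range was kept. The rule used names and the spread over all 20 arrays, without a group comparison. A difference between groups can still add to that spread. Of 59 coding Rab genes of that form in RefSeq, only Rab4b was without a cluster of its own and is not analysed here. No Rab was dropped for low signal: the 58 mean levels ran from 4.61 to 12.13 log2 units, all above 4.48, the highest level of Y-linked genes in arrays with a female pattern. That bound rests on the probes of those genes, so lying above it does not show that a Rab was detected.

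A Rab protein switches between a GDP-bound form, held in the cytosol by GDP dissociation inhibitors, and a GTP-bound form on a membrane, where it recruits effectors such as tethers and motors. Exchange factors (GEFs) switch it on and GTPase-activating proteins (GAPs) switch it off, and each Rab marks a step of the route: Rab1 between the endoplasmic reticulum (ER) and the Golgi, Rab5 on early endosomes, Rab7 on late endosomes and Rab3 on synaptic vesicles. Rabs are studied in synucleinopathies because α-synuclein binds synaptic vesicles and, in yeast, blocks traffic from the ER to the Golgi, and because the Parkinson's disease kinase LRRK2 phosphorylates several of them.

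Each array held RNA of the dorsal striatum of 1 mouse, and the 20 mice formed 4 groups of 5. ASO-NSC and ASO-Veh mice carried the PDGF-β-ASO line D transgene, human wild-type α-synuclein driven by the PDGF-β promoter, and WT-NSC and WT-Veh mice were their non-transgenic littermates, all congenic on C57B6/J and aged 12 months by their labels. The NSC groups were injected in the striatum with GFP-expressing mouse neural stem cells, 1 cultured line of hippocampal and cortical origin, and the Veh groups with saline. The array cannot separate RNA of the graft from RNA of the host, and it was not designed for the human transgene.

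ASO-NSC mouse 59, which the study left out as an outlier, was left out of the fits, so that 19 arrays remained. It had the lowest mean level of spiny projection neuron markers of all arrays. In the 19 others that mean ran from 10.70 to 11.36, so markers of the striatal projection neurons were high in each of them. Other marker lists varied more between mice. Within WT-Veh mice alone the mean of cortical neuron markers ran from 6.61 to 8.28. That of ependyma and choroid plexus markers ran from 7.12 to 9.17. The source of this spread was not tested. RNA integrity numbers were 9.2 to 9.7 and array medians 6.17 to 6.28 log2 units. NSC mice came from litters 3, 4 and 6 and Veh mice from litters 1, 3 and 5, and only litter 3 held both treatments, with WT-NSC mouse 53 and ASO-Veh mice 46 and 47. Litter and treatment therefore cannot be told apart for most of the arrays. Sex-linked transcripts differed from the labelled sex in 5 arrays (WT-NSC mouse 54, ASO-Veh mice 45 and 47, WT-Veh mice 61 and 62). The NSC results of Rab29, Rab21, the exchange factor Rin2 and the cell type markers past the threshold are given with and without them. The levels of ASO-Veh against WT-Veh mice and the values of most other Rabs are given only with them. All values are log2 intensities after robust multiarray averaging (RMA). Because each cluster has its own probes, levels of different genes are compared only roughly, for the Y-linked bound and for cutoffs on signal level.

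The upstream sequences of Rab29 and Rab21 are shown because these genes had the largest statistics for NSC treatment. They are the RefSeq bases just before the annotated start (GRCm38.p6), for Rab29 chr1:131867027-131867276 on the plus strand and for Rab21 chr10:115315592-115315841 on the minus strand. Capitals mark matches to 7 motifs searched on both strands.
Rab29: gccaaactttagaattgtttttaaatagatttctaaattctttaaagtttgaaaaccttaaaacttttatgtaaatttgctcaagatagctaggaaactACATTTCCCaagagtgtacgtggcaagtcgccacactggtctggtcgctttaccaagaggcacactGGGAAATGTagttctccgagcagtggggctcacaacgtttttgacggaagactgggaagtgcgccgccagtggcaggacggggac
Rab21: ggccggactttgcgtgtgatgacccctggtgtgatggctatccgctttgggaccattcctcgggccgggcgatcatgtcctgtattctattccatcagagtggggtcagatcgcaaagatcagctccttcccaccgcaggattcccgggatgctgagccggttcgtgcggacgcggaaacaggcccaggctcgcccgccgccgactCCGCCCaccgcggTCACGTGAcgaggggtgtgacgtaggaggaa

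Both marked runs of Rab29 match ACANNTCCC, the inner letters of the ZNF143 motif, once on each strand. This motif was looked for after the sequence had been seen, and it occurred upstream of 4 of the 47 Rabs with a RefSeq entry (Rab29, Rab3c, Rab5c and Rab8b) and in 6.31% of all 27025 genes. The longer run of Rab21 matches TCACGTGA, the core of the CLEAR element of lysosomal genes, which includes the E-box CACGTG. TCACGTGA also lay upstream of Rab5a and in 0.907% of all genes, and CACGTG upstream of 5 Rabs and 6.86% of all genes. The other run of Rab21 is the GC box GGGCGG on the opposite strand, present in 35 of 47 Rabs and 35.4% of all genes. The remaining motifs, the interferon-stimulated core GAAANNGAA (3 Rabs, 8.18% of genes), the cyclic AMP response element TGACGTCA (2 Rabs, 1.77%) and the NRF1 letters GCGCNTGCG (5 Rabs, 5.88%), matched neither stretch.

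The first question was what NSC treatment did to the Rabs in striatum. Averaged over both genotypes, Rab29 rose and was the only one of 58 Rabs to pass the threshold, an adjusted p under 0.05 over all 22180 genes in limma, against 1.15% of all genes called and 0.951% called higher. Rab29 (also known as Rab7l1) lies in the human PARK16 locus and recruits LRRK2 to Golgi and lysosomal membranes in human cells. Its level was 6.96, 6.97, 7.04 and 7.08 in ASO-NSC mice, and 6.75, 6.88, 6.96, 7.06 and 7.22 in WT-NSC mice. It was 6.63, 6.64, 6.69, 6.81 and 6.90 in ASO-Veh mice and 6.57, 6.79, 6.79, 6.81 and 6.83 in WT-Veh mice. All 4 ASO-NSC mice lay above every Veh mouse, whereas WT-NSC mice 53 and 70 lay below the highest Veh mouse, ASO-Veh mouse 46. The difference was 0.25 log2 units (95% interval 0.14 to 0.36), 1.19-fold, with adjusted p = 0.0272 in limma.

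The call on Rab29 changed with the mice in the fit. It held in 13 of 19 fits that left out 1 mouse and was lost without ASO-NSC mouse 75, WT-NSC mouse 58, ASO-Veh mouse 42 or 68 or WT-Veh mouse 61 or 66, where the adjusted p in limma ran up to 0.0643. The size moved little, between 0.22 and 0.27. Without the 5 arrays whose sex-linked transcripts differed from the label the difference was 0.26 with adjusted p = 0.145 in limma, and with all 20 arrays, where mouse 59 had the highest level at 7.32, it was 0.28 with adjusted p = 0.0155. With litter as a fixed block it was 0.05 with adjusted p = 0.997 in limma, an estimate that rests on WT-NSC mouse 53 (6.75) against ASO-Veh mice 46 and 47 (6.90 and 6.64). Without the 3 mice of litter 3 it was 0.28 with adjusted p = 0.0349 in limma, a fit added after the data were seen.

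**Figure D1:**
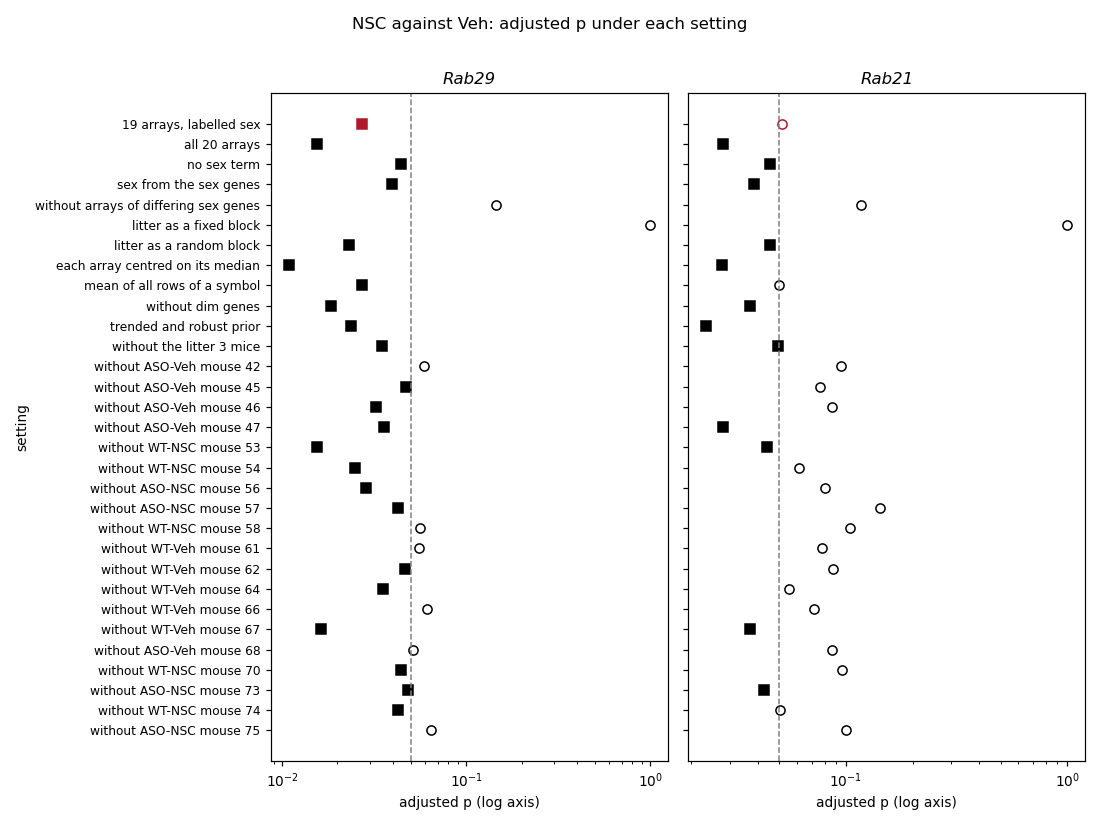
Adjusted p of the NSC minus Veh difference of Rab29 and Rab21 (log axis) under each setting, with the 19-array fit in red, filled squares below 0.05 and open circles above it, and the dashed line at 0.05. Rab29 was past the threshold in 13 of 19 fits without 1 mouse and Rab21 in 4.

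Rab21, which carries integrins through early endosomes, was next. It read 10.14, 10.25, 10.28 and 10.33 in ASO-NSC mice, and 10.13, 10.17, 10.24, 10.33 and 10.34 in WT-NSC mice. It read 10.001, 10.05, 10.08, 10.14 and 10.25 in ASO-Veh mice and 9.87, 10.02, 10.03, 10.07 and 10.07 in WT-Veh mice. Every NSC mouse lay above every WT-Veh mouse, and only ASO-Veh mice 45 and 47 reached into the NSC range. The difference of 0.19 (0.09 to 0.29) missed the threshold with adjusted p = 0.0513 in limma. It passed in 8 of 11 other settings, among them all 20 arrays (0.0277), a sex term from the sex-linked transcripts (0.0385) and litter as a random block (0.0453). The correlation within litters in the random block fit was -0.0089, so that fit was close to the fit without litter. It could not separate litter from treatment. The Rab21 difference was 0.20 with adjusted p = 0.117 in limma without the 5 arrays of differing sex transcripts, and -0.011 with litter as a fixed block.

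**Figure D2:**
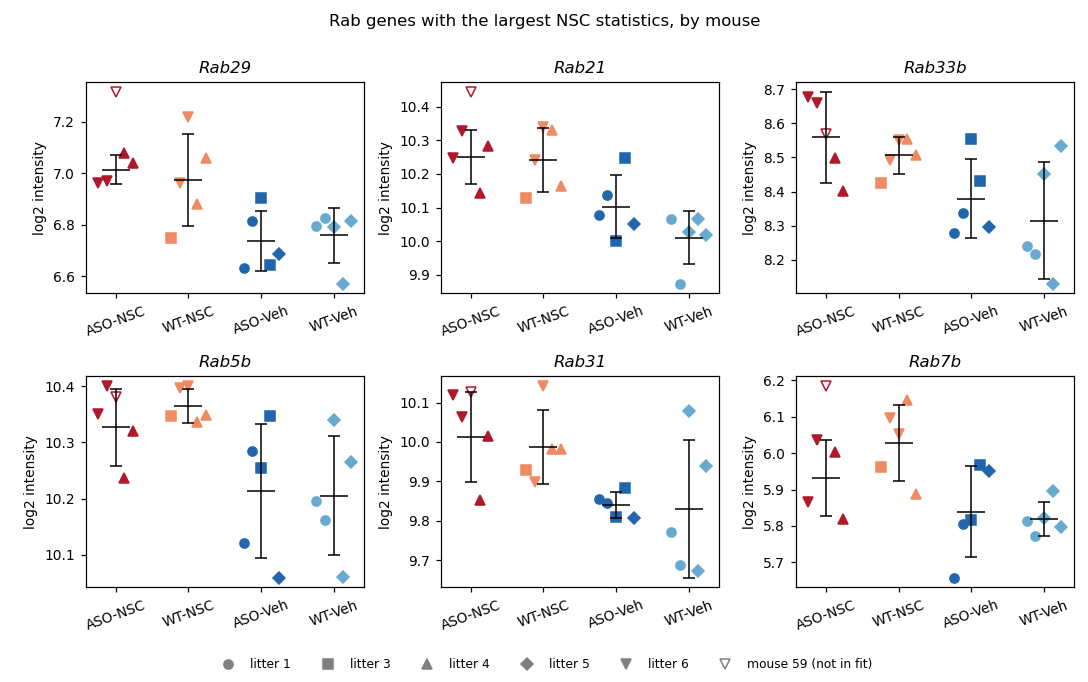
Log2 intensity by mouse of the 6 Rab genes with the lowest p for NSC against Veh, with the group mean and SD in black, the litter by symbol and mouse 59 as an open symbol outside the mean. Rab29 of all 4 ASO-NSC mice in the fit lies above both Veh groups, and the other genes overlap between ASO-NSC and ASO-Veh mice.

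A further 10 Rabs had an unadjusted p under 0.05, so that 12 of 58 (20.7%) did, against 18.7% of all genes. Of the 12, 11 were higher (19% of Rabs, against 10.9% of all genes) and 1 was lower (1.72%, against 7.76%). None of these 10 passed the adjusted threshold. Rab33b, which acts at the Golgi and binds the autophagy protein ATG16L1, averaged 8.56 ± 0.13 in ASO-NSC (n = 4), 8.51 ± 0.05 in WT-NSC, 8.38 ± 0.12 in ASO-Veh and 8.31 ± 0.17 in WT-Veh mice (SD, n = 5 each). The NSC difference was 0.19 (0.07 to 0.31, adjusted p = 0.0956 in limma). Its groups overlapped, with ASO-Veh mouse 46 at 8.55 and WT-Veh mouse 67 at 8.53.

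Of the 8 early endosome Rabs, 6 had a positive difference, with a median of 0.08 against 0.00 for all genes, and 3 had an unadjusted p under 0.05, all higher, against 10.9% of all genes. Beside Rab21 these were Rab5b, a fusion factor of early endosomes, at 0.14 (0.05 to 0.23, adjusted p = 0.101 in limma), and Rab31, which works between the trans-Golgi and endosomes, at 0.17 (0.05 to 0.28, adjusted p = 0.121). Rab31 read 9.85, 10.02, 10.06 and 10.12 in ASO-NSC mice and 9.90, 9.93, 9.98, 9.98 and 10.14 in WT-NSC mice, against 9.81 to 9.88 in ASO-Veh mice and 9.67, 9.69, 9.77, 9.94 and 10.08 in WT-Veh mice. Only ASO-NSC mouse 73 lay within the ASO-Veh range, whereas WT-Veh mice 64 and 67 lay among the WT-NSC mice. Rab5b ran from 10.24 to 10.40 in ASO-NSC and from 10.34 to 10.40 in WT-NSC mice, against 10.06 to 10.35 in ASO-Veh and 10.06 to 10.34 in WT-Veh mice, which overlapped with them. Its paralogs Rab5a and Rab5c, which share that role, had differences of 0.10 and 0.05 (adjusted p of 0.327 and 0.491 in limma). Rab20 and Rab17 had negative values of -0.09 and -0.10.

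Among the late endosome, lysosome and autophagy Rabs, 6 of 9 were positive with a median of 0.06. Rab7b, which returns cargo from late endosomes to the Golgi, differed by 0.15 (0.05 to 0.26, adjusted p = 0.128 in limma). Its levels were 5.82 to 6.04 in ASO-NSC and 5.89 to 6.15 in WT-NSC mice, against 5.66 to 5.97 in ASO-Veh and 5.77 to 5.89 in WT-Veh mice, so that the groups overlapped in both genotypes. Rab7, the general late endosome Rab, differed by 0.07 (-0.01 to 0.14), and Rab9, which returns mannose 6-phosphate receptors to the Golgi, by 0.10 (-0.03 to 0.22). Of the recycling Rabs 4 of 7 were positive with a median of 0.02, led by Rab35 of the fast recycling route at 0.13 (0.04 to 0.22, adjusted p = 0.129 in limma). Rab35 read 9.29, 9.40, 9.47 and 9.57 in ASO-NSC mice and 9.28, 9.40, 9.50, 9.54 and 9.54 in WT-NSC mice, against 9.30, 9.31, 9.37, 9.39 and 9.42 in ASO-Veh mice and 9.16, 9.24, 9.25, 9.35 and 9.40 in WT-Veh mice. In each NSC group 2 mice lay no higher than the highest Veh mouse. Rab11a, the marker of slow recycling, was at 0.02 (-0.09 to 0.13).

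Of 11 Rabs of the ER and Golgi, 9 were positive with a median of 0.07. Rab1b, which carries cargo from the ER to the Golgi, differed by 0.11 (0.02 to 0.20, adjusted p = 0.200 in limma), and its level in WT-NSC mouse 53, 10.95, lay below the other WT-NSC mice at 11.18 to 11.23. Rab1a, the close relative, differed by 0.04 (-0.04 to 0.12). Rab2b and Rab18, also of the early secretory route, were at 0.13 (-0.01 to 0.27) and 0.11 (-0.02 to 0.23), and Rab6a, of retrograde Golgi traffic, at 0.09 (-0.02 to 0.20). Of 6 Rabs of exocytosis and cilia 5 were positive with a median of 0.06, among them Rab8b at 0.12 (0.01 to 0.23, adjusted p = 0.220 in limma) and Rab10 at 0.07 (-0.05 to 0.18).

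The 8 Rabs of synaptic vesicles and regulated secretion had a median of 0.03, with 6 positive. Rab3a, the main Rab of synaptic vesicles, differed by 0.04 (-0.03 to 0.12), Rab3b by 0.03 (-0.08 to 0.14), Rab3c by 0.09 (-0.03 to 0.21), Rab27b, of vesicle docking, by 0.04 (-0.11 to 0.19) and Rab26, which clusters synaptic vesicles, by -0.06 (-0.18 to 0.06). The exception in size was Rab37, a Rab of secretory granules in mast cells, at 0.21 (0.03 to 0.40, adjusted p = 0.213 in limma), with a single high mouse in each NSC group in the fit (57 at 6.32 and 58 at 6.37). Mouse 59, outside the fit, was higher still at 7.14.

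In the group of lysosome-related organelles that holds Rab29, the others did not follow it in one direction. Rab32 and Rab38, its closest relatives and shared factors of pigment granules, differed by 0.13 (-0.01 to 0.26) and -0.05 (-0.20 to 0.09), and Rab19 by -0.14 (-0.27 to -0.01, adjusted p = 0.228 in limma), the only negative value with an unadjusted p under 0.05. Rab19 ran from 5.96 to 6.15 in ASO-NSC and from 5.82 to 6.21 in WT-NSC mice, against 6.10 to 6.39 in ASO-Veh and 5.91 to 6.36 in WT-Veh mice, with overlap in both genotypes. The lowest difference of all Rabs, -0.18 (-0.36 to 0.01, adjusted p = 0.297 in limma), was that of Rab40b, of a subfamily that acts in ubiquitin ligases. Of the 14 measured Rabs that LRRK2 phosphorylates, 11 were positive with a median of 0.06, and 4 had an unadjusted p under 0.05 (Rab29, Rab5b, Rab35 and Rab8b), all higher, against 10.9% of all genes higher at that p. Lrrk2 itself was at -0.13 (SE 0.098, adjusted p = 0.477 in limma).

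**Figure D3:**
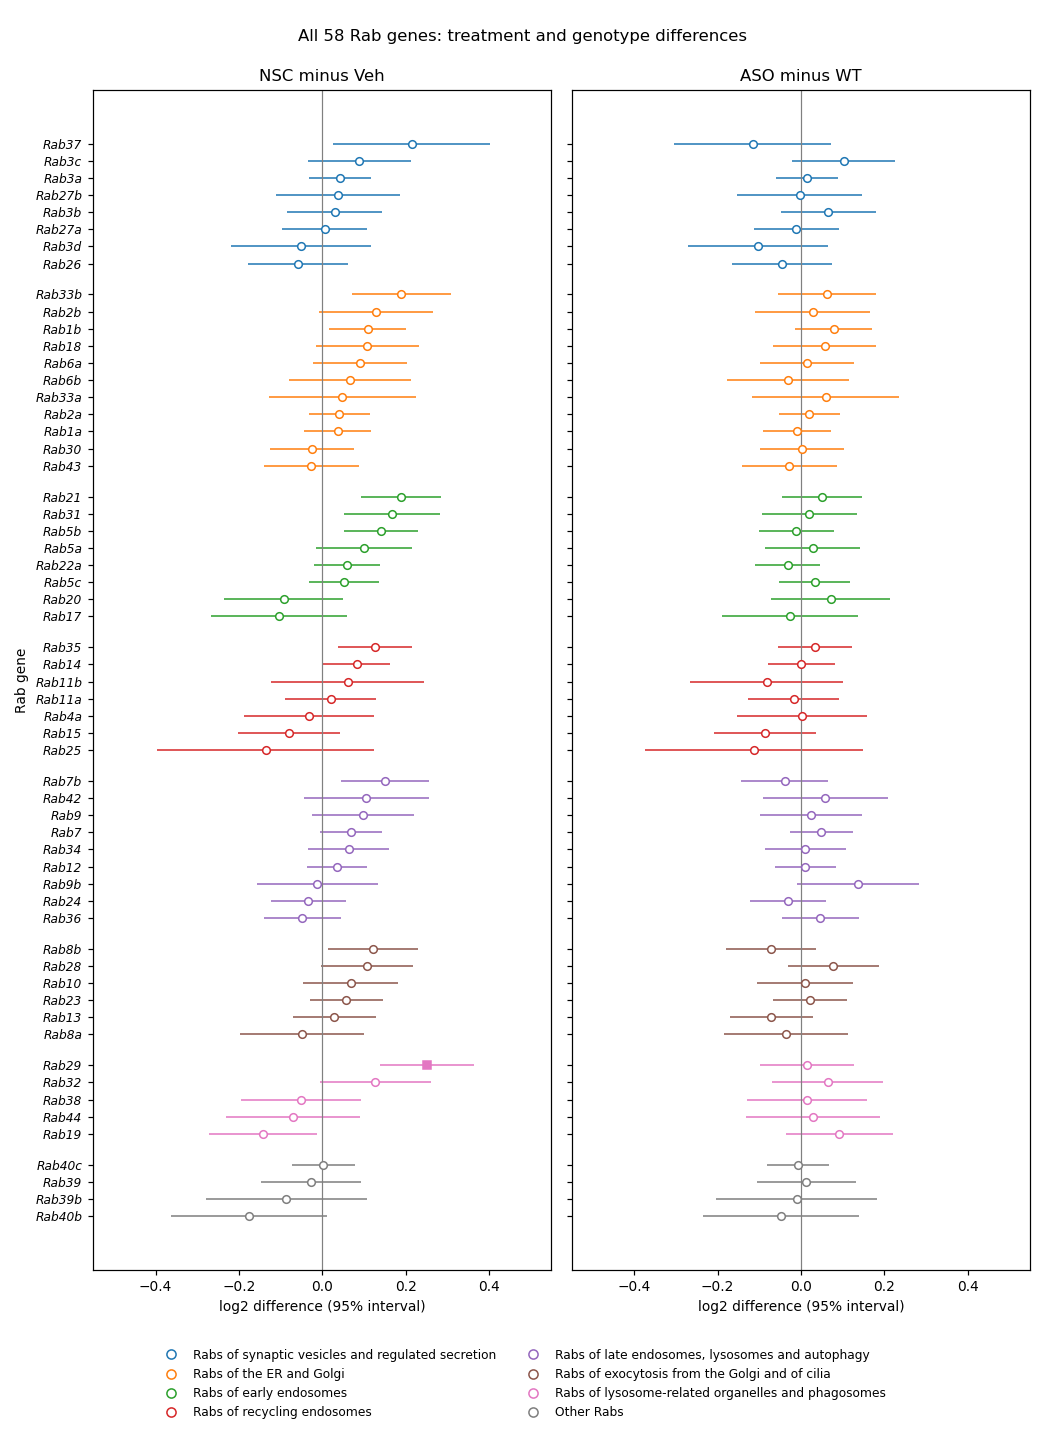
Log2 differences of all 58 Rab genes with 95% intervals, NSC minus Veh averaged over genotypes on the left and ASO minus WT averaged over treatments on the right, coloured by role. The filled square is Rab29, the only gene past the threshold, and in the right panel every interval holds 0.

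Over all 58 Rabs the median NSC difference was 0.05, with 39 positive (67.2%), against a median of 0.00 and 50% positive over all genes. The share differed with signal level in Rabs and in all genes. Of the 9 Rabs with a mean of 10 or more log2 units all 9 were positive, against 62.4% of the genes at that level, and of the 10 Rabs under 6 only 3 were, against 27.9% of the genes there. Between 6 and 8, 8 of 13 Rabs were positive, against 59.5% of genes, and between 8 and 10, 19 of 26, against 69.1%. With each array centred on its own median, the median of all genes moved to 0.04 and that of the Rabs to 0.08, so both moved up together.

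The choice of cluster mattered for Rab8a, a LRRK2 target at the Golgi and cilium. The cluster kept by the rule was dim, with a mean of 6.11, and differed by -0.05 (-0.20 to 0.10). The other cluster had a mean of 8.99, almost the same interquartile range (0.175, against 0.176 for the one kept) and a difference of 0.18, with adjusted p = 0.0915 in limma over all clusters. Rab39b, mutated in an early-onset parkinsonism, likewise gave -0.09 from the cluster kept (mean 5.64) and 0.08 from the unused one (mean 9.40). The sign also differed between clusters for Rab3c (-0.11 from the unused one), Rab3d (0.08) and Rab20 (0.06), and for Rab11b and Rab6b every cluster was positive. For Rab11b the cluster kept had a mean of 6.21, against 11.18 for the brightest unused one. For Rab6b the means were 8.56 for the cluster kept and 11.59 for the unused one.

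Markers of microglia and astrocytes were higher with NSC treatment too. All 7 microglial markers were positive, with Csf1r (0.27), Itgam (0.29) and Cd68 (0.25) past the threshold, and all 5 astrocyte markers, with Gfap (0.75) and Aqp4 (0.38) past it. The mean of the microglial list was 8.26 to 8.43 in ASO-NSC and 8.30 to 8.58 in WT-NSC mice, against 8.12 to 8.20 in ASO-Veh and 8.08 to 8.23 in WT-Veh mice, without overlap among the mice in the fit. ASO-NSC mouse 59, outside the fit, lay within both Veh ranges at 8.13, so the separation holds only without it. The mean of the astrocyte list was 9.41 to 9.81 in ASO-NSC and 9.40 to 9.68 in WT-NSC mice, against 9.23 to 9.36 in ASO-Veh and 9.01 to 9.38 in WT-Veh mice, also apart. Here mouse 59 lay above the Veh mice at 9.77. The 4 oligodendrocyte markers were all positive with none past the threshold. Olig2 of the 3 progenitor markers passed at 0.37, 4 of 5 neural stem cell markers were positive, and all 5 spiny neuron markers were negative with none past it. Positive values were not confined to these lists. They were found for 4 of 5 cortical neuron markers and for all 4 markers each of endothelium, lymphocytes, and ependyma with choroid plexus, none past the threshold. Without the 5 arrays of differing sex transcripts, Gfap alone of these 6 named markers passed, and the values of the others were 0.23 to 0.37. A fixed block for litter left none of the 6 past the threshold (Csf1r 0.16, Itgam 0.47, Cd68 0.28, Gfap 0.43, Aqp4 0.24 and Olig2 -0.04, adjusted p of 0.887 or more in limma). Of 19 fits that left out 1 mouse, Gfap, Aqp4 and Csf1r passed in all 19, Cd68 in 11, Itgam in 6 and Olig2 in 5. Cd68 did not pass with all 20 arrays (adjusted p = 0.0851). Their part in the Rab values was not tested, and in bulk tissue more (or fewer) cells of a type and more (or less) RNA per cell cannot be told apart.

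**Figure D4:**
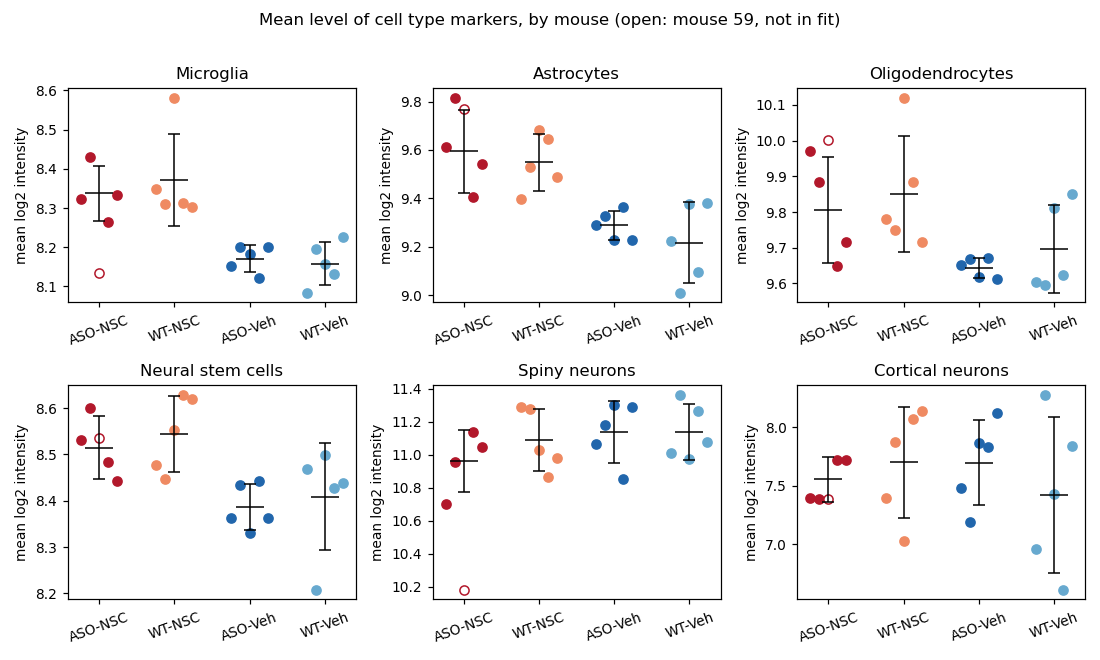
Mean log2 intensity of 6 lists of cell type markers by mouse, with the group mean and SD in black and mouse 59 open and outside the mean. The microglial means of all NSC mice in the fit lie above those of all Veh mice, and that of mouse 59 lies among the Veh mice.

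Within ASO mice alone, no Rab passed the threshold for NSC against Veh, where 2 of 22180 genes (0.00902%) did, and 7 Rabs (12.1%) had an unadjusted p under 0.05, against 8.88% of genes. Of the 7, 6 were higher (10.3%, against 5.56% of genes) and 1 was lower (1.72%, against 3.32%). For 5 Rabs (8.62%) every ASO-NSC mouse lay above every ASO-Veh mouse, against 3.01% of genes: Rab14, Rab1a, Rab22a, Rab29 and Rab37. Rab1a read 11.05, 11.06, 11.15 and 11.19 in ASO-NSC mice, against 10.98, 10.99, 10.99, 10.99 and 11.02 in ASO-Veh mice, a difference of 0.13 (adjusted p = 0.534 in limma). Rab29 differed by 0.27 (adjusted p = 0.391) and Rab37 by 0.34 (adjusted p = 0.494), and Rab40b had the lowest value at -0.29. Rab14, which serves endosomes and the Golgi, differed by 0.13 (adjusted p = 0.525).

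Within WT mice no Rab passed either, where 96 genes (0.433%) did, and 8 Rabs (13.8%) had an unadjusted p under 0.05, against 13.5% of genes. All 8 were higher, against 7.04% of genes higher and 6.48% lower at that p. Rab21 (0.23, adjusted p = 0.123 in limma) and Rab3a (0.12, adjusted p = 0.284) were the 2 Rabs (3.45%) whose WT-NSC mice all lay above the WT-Veh mice, against 1.24% of genes. Rab3a read 11.07, 11.08, 11.11, 11.12 and 11.13 in WT-NSC mice and 10.94, 10.95, 11.01, 11.01 and 11.03 in WT-Veh mice. Rab35 differed by 0.19 and Rab29 by 0.24 (adjusted p of 0.173 and 0.183). Without WT-Veh mouse 67, Rab33b passed the threshold. The share of all genes called in that fit is not given here, so this call has no background beside it. In the averaged comparison, leaving out the same mouse also raised the calls over all genes.

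Whether the NSC difference itself depended on genotype was tested as an interaction. No Rab and no other gene passed, and 2 Rabs (3.45%) had an unadjusted p under 0.05, against 3.64% of genes. These were Rab1a, whose NSC difference was larger in ASO mice by 0.18, and Rab3a, whose NSC difference was smaller in ASO mice by -0.16 (adjusted p of 1.00 each in limma). For Rab29 the interaction was 0.03 (-0.20 to 0.26) and for Rab21 -0.09 (-0.28 to 0.11).

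**Figure D5:**
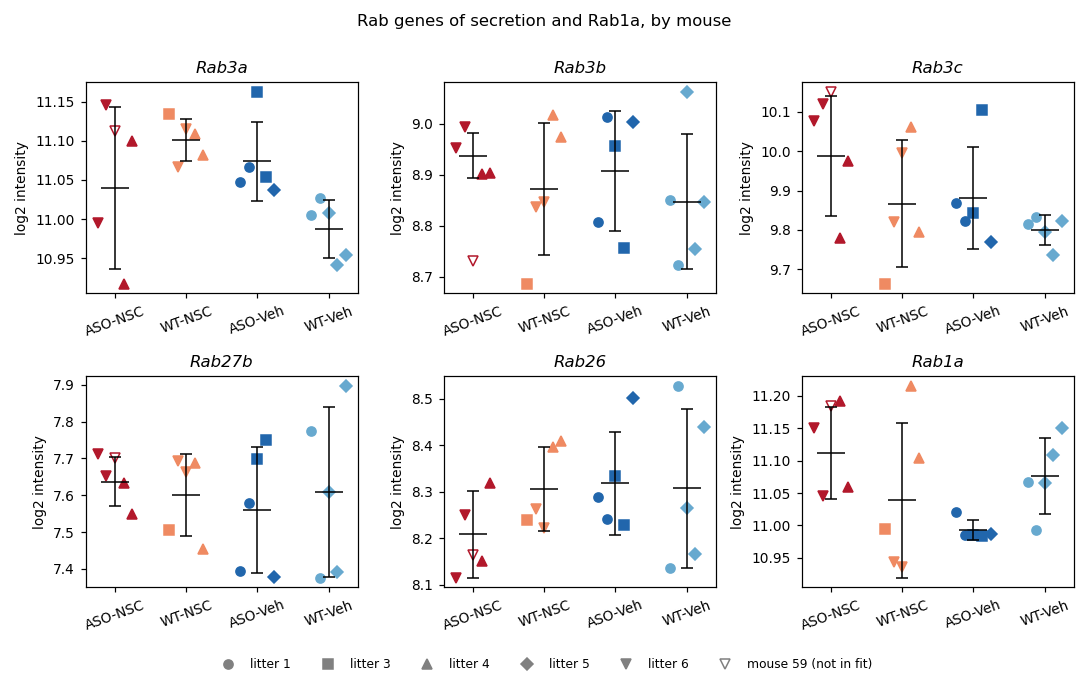
Log2 intensity by mouse of 5 Rabs of secretion and of Rab1a, with the group mean and SD in black, litter by symbol and mouse 59 open. Rab1a of the ASO-NSC mice lies above that of the ASO-Veh mice, and Rab3a of the WT-NSC mice above that of the WT-Veh mice.

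The last question was whether the α-synuclein transgene altered the Rabs. In the fit without a litter term, no Rab passed the threshold or an unadjusted p under 0.05 in any of 3 comparisons of genotype. For ASO-Veh against WT-Veh, 4.81% of genes had an unadjusted p under 0.05 and none an adjusted one; for ASO-NSC against WT-NSC 3.05% and 0.00451% did; and for both treatments averaged 4.01% and 0.00902% did. The averaged differences ran from -0.12 (Rab37) to 0.14 (Rab9b), 53 of 58 were under 0.1 in size, and for 56 the 95% interval lay within 0.3 of 0. The median of the Rabs was 0.01 with 35 positive, against -0.01 for all genes, of which 46.1% were positive. Of the 58, only Rab20 and Rab36 were higher in ASO than in WT mice within each of the 4 litters of 1 treatment that held both genotypes. The share of all genes that did so was not tested, so the count has no background beside it, and litter 5 held only 1 ASO mouse. The unused Rab20 cluster went the other way in the averaged comparison, at -0.05 against 0.07 for the cluster kept.

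Rab9b, Rab3a and Rab37 had the lowest unadjusted p of the Rabs for ASO-Veh against WT-Veh. Rab9b, of late endosome to Golgi traffic, read 9.69, 9.78, 9.86, 9.90 and 9.98 in ASO-Veh mice and 9.54, 9.58, 9.63, 9.71 and 9.97 in WT-Veh mice, a difference of 0.19 (adjusted p = 0.998 in limma). All but WT-Veh mouse 61 of the WT-Veh group lay below 4 of the 5 ASO-Veh mice. Rab3a was 11.04, 11.05, 11.05, 11.07 and 11.16 in ASO-Veh mice and 11.03 at most in WT-Veh mice, so that the groups did not overlap, at a difference of 0.10 (adjusted p = 0.998). Rab37 lay apart the other way, with 5.56 to 5.72 in ASO-Veh and 5.74 to 6.14 in WT-Veh mice (-0.24). These were 1 Rab in each direction (1.72%), against 0.275% of genes higher and 0.469% lower.

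Under NSC treatment, Rab15 of recycling endosomes, Rab1a and Rab7 led the comparison of ASO-NSC with WT-NSC mice, all with adjusted p of 1.00 in limma. Rab1a, whose yeast counterpart counters α-synuclein toxicity, was at -0.10 for ASO-Veh against WT-Veh and at 0.08 for ASO-NSC against WT-NSC mice, neither with an unadjusted p under 0.05. For ASO-NSC against WT-Veh mice, which differ in both factors, no Rab passed where 3 genes (0.0135%) did, and 9 Rabs (15.5%) had an unadjusted p under 0.05, against 13.7% of genes. All 9 were higher in this comparison, against 7.37% of genes higher and 6.29% lower at that p. There Rab21 differed by 0.24 and Rab29 by 0.27 (adjusted p of 0.192 and 0.207), both without overlap of the groups (3.45% of Rabs, against 2.25% of genes).

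The proteins that act on Rabs gave 1 call in the fit of 19 arrays. Rin2, an exchange factor for Rab5, rose with NSC treatment, with 7.96 ± 0.12 in ASO-NSC (n = 4) and 7.92 ± 0.11 in WT-NSC mice, against 7.70 ± 0.01 in ASO-Veh and 7.72 ± 0.15 in WT-Veh mice (SD, n = 5 each). The NSC difference was 0.23 (SE 0.049, adjusted p = 0.0245 in limma). The call was lost without ASO-NSC mouse 57 or 75, WT-NSC mouse 58 or WT-Veh mouse 66 (adjusted p up to 0.0779 in limma), without the litter 3 mice (0.0625) and without the 5 arrays of differing sex transcripts (0.105), with values between 0.21 and 0.25, and with litter as a fixed block, where the value was 0.29 with adjusted p = 0.937. It was the only one of 34 measured exchange factors past the threshold, and 20 of the 34 were positive with a median of 0.02. Over all genes 1.15% passed and 50% were positive. Rab3il1, an exchange factor for Rab8, differed by 0.18 (adjusted p = 0.0776). Of 32 GAPs none passed and 21 were positive, led by Tbc1d9 (0.21, adjusted p = 0.0848) and Usp6nl, which acts on Rab5 (0.22, adjusted p = 0.130). Tbc1d9 passed in 3 of 11 other settings (all 20 arrays, median centring and without the litter 3 mice, 0.0470 to 0.0493), and Rab3il1 in 1, median centring (0.0410).

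All 7 genes of the prenylation and GDP dissociation cycle were positive with a median of 0.09, Chml, a Rab escort protein, being the largest in statistic at 0.17 (adjusted p = 0.243 in limma). Among 35 effectors, with the kinase Lrrk2 and the phosphatase Ppm1h, none passed. Sytl1, a synaptotagmin-like effector of Rab27, was the nearest, at -0.18 (adjusted p = 0.0520), and it passed in 4 of 11 other settings (all 20 arrays, litter as a random block, without dim genes and without the litter 3 mice, 0.0368 to 0.0455). The random block fit, close to the fit without litter, does not separate litter from treatment for Sytl1 either. Sytl2, a relative of Sytl1, was at 0.25 (adjusted p = 0.0937 in limma). For genotype averaged over both treatments none of the 4 lists held a call, and 2 of 32 GAPs, 1 exchange factor and 1 effector had an unadjusted p under 0.05. All had negative differences, against 2.34% of all genes lower at that p and 4.01% in either direction.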

How the data were processed

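The authors deposited log2 intensities of Affymetrix Mouse Gene 2.0 ST arrays, computed with RMA in the oligo package: background correction, normalization across arrays and summary of probes. This brings arrays to a common distribution and so can hide a shift of all genes. The log2 table held 41345 transcript clusters, of which 23521 carried 1 symbol, giving 22180 genes. Group, litter, age, labelled sex and RNA integrity came from the sample labels. Replicates are mice, and with no read depth in array data it is their number that limits precision.

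limma 3.58.1 (R 4.3.3) fitted group and labelled sex to 19 arrays (14 residual and 4.20 prior degrees of freedom), and p-values were adjusted by Benjamini-Hochberg over all 22180 genes. NSC and genotype differences were also averaged over the other factor. The code was tested on simulated data. Plots used Python 3.11.15 and matplotlib 3.10.9. Promoter sequences are RefSeq's for GRCm38.p6, 250 bases before the start, and 11 Rabs had no entry.

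The Rabs, the lists and the tests were chosen with earlier results of these data known. Named were every Rab past the threshold, the 3 with the largest statistic per comparison, a set tied to synaptic release or Parkinson's disease, and up to 2 regulators per list. Other Rabs of the roles described, those with an unadjusted p under 0.05 and the upstream sequences were added after their values were seen. The fits were repeated with all 20 arrays, without a sex term, with sex from sex-linked transcripts, dropping the 5 mismatched arrays, litter as a fixed or random block, median centring, the mean of clusters, a filter on dim genes, a trended prior and leaving out each mouse.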

Additional observations from a re-analysis of the deposited data

Results flagged for a closer look

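In 6 of 100 group values tested, 1 mouse lay far from its group, by Dixon's criterion, and chance alone gives about 1 in 20. Rab10 was 10.71 in ASO-NSC mouse 57, with the others at 10.54 to 10.55. Rab1a was 11.02 in ASO-Veh mouse 42, where the other 4 lay between 10.98 and 10.99. Rab1b was 10.95 in WT-NSC mouse 53, the only NSC mouse of litter 3, with the others at 11.18 to 11.23. Rab21 was 9.87 in WT-Veh mouse 62, with the others at 10.02 to 10.07. Rab29 was 6.57 in WT-Veh mouse 66, with the others at 6.79 to 6.83, and its NSC difference without that mouse was 0.23 (adjusted p = 0.0614 in limma). Rab3a was 11.16 in ASO-Veh mouse 46, with the others at 11.04 to 11.07.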

How the results depend on the processing

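The number of Rabs called for NSC against Veh, 1 with 19 arrays, was 2 (Rab29 and Rab21) with all 20 arrays, no sex term, sex from the sex-linked transcripts, litter as a random block, median centring, without dim genes, with a trended prior and without the litter 3 mice, and 0 without the arrays of mismatched sex and with litter as a fixed block. Leaving out each mouse gave 0 to 4, with 4 without WT-Veh mouse 67 (Rab5b and Rab33b added) and 3 without ASO-Veh mouse 47 (Rab5b added). For WT-NSC against WT-Veh it gave 0 to 1, and for the other comparisons 0 throughout. Calls over all genes for NSC against Veh moved as well, from 256 with 19 arrays. In the settings with 2 Rabs just listed they ran up to 480 with all 20 arrays and 529 with median centring. Of those settings, only no sex term (246) and leaving out the litter 3 mice (207) gave fewer than 256. They were 1004 without WT-Veh mouse 67 and 469 without ASO-Veh mouse 47. Calls over all genes fell as well where no Rab was called, to 99 without the arrays of mismatched sex and to 2 with litter as a fixed block. The random litter block, with a correlation within litters of -0.0089, was close to the fit without litter. With litter as a fixed block, which rests on WT-NSC mouse 53, the NSC difference turned direction for Rab21 (-0.011), Rab10 (-0.18), Rab11a (-0.054), Rab12 (-0.00061), Rab15 (0.0095), Rab1a (-0.021), Rab1b (-0.16), Rab27b (-0.28), Rab32 (-0.14), Rab35 (-0.078, and -0.013 in WT mice), Rab37 (-0.022), Rab3c (-0.33), Rab5a (-0.14), Rab7 (-0.067), Rab8b (-0.033), Rab5c (-0.061), Rab17 (0.17), Rab9 (-0.20), Rab40b (0.35), Rab2b (-0.21), Rab18 (-0.29) and Rab6a (-0.21), and for Tbc1d9 (-0.15), Chml (-0.39), Sytl1 (0.0078), Lrrk2 (0.14) and Olig2 (-0.036). The Rab median was -0.019. Values near 0 also turned: Rab27a was -0.030 without the arrays of mismatched sex and -0.021 without litter 3, Rab9b was 0.0088 and, with centring, 0.026, and the mean of clusters gave -0.0098 for Rab3c and 0.067 for Rab8a. Leaving out each mouse, Rab27a ran from -0.011 to 0.028 and Rab9b from -0.045 to 0.030. The cause was not tested. Mice could not be paired by number, since the groups share none. Littermates allow a genotype comparison with litter as a fixed block, in which 0 Rabs were called by limma and 2 (ASO-Veh against WT-Veh), 0 (ASO-NSC against WT-NSC) and 1 (averaged) had an unadjusted p under 0.05. The share of all genes at that p under this fit is not given here, so these counts cannot be set against a background. Differences of about 0.11 log2 units lie within the 95% interval of a typical Rab in the averaged comparisons, and about 0.16 to 0.17 in those of single groups.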
